A study of Mus musculus with 8 samples.

Results

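The genes described here are the zinc finger genes of mouse chromosomes 7, 13 and 17, defined as protein-coding RefSeq genes of GRCm38 whose symbol is Zfp followed by a digit. There were 176 of them among 21887 protein-coding genes of the autosomes and the X and Y chromosomes, with 93 on chromosome 7, 37 on chromosome 13 and 46 on chromosome 17. Symbol and chromosome define the members, but the 3 chromosomes were chosen by measured values, namely earlier results of the same peak lists. Shares and ranks of the members are therefore given as a description, and no test was made on them. The data are H3K27me3 ChIP-seq peak lists from mouse cartilage chondrocytes grown in DMEM with 10% fetal bovine serum, where each of 4 genotypes has 1 immunoprecipitated and 1 input library. The genotypes are wild type and conditional knockouts (cKO) of Ezh2, Utx (also named Kdm6a) and Jmjd3 (Kdm6b). The sources used here give no Cre driver, age, sex or strain, and they do not say how many animals contributed cells. H3K27me3 is trimethylation of lysine 27 of histone H3, which Ezh2 deposits and Utx and Jmjd3 remove, and the question was how the mark differs between these genotypes.

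Most zinc finger genes of these chromosomes encode DNA-binding proteins with tandem C2H2 fingers, and many carry a KRAB domain that recruits the corepressor Trim28 and the H3K9 methyltransferase Setdb1 to transposable elements. Such genes arose by repeated tandem duplication and lie in multi-copy clusters whose members can be nearly identical. A few genes named Zfp belong to other families, among them Zfp36 and Zfp36l2, whose CCCH fingers bind AU-rich mRNAs and promote their decay. H3K27me3 is best known at silent developmental genes. A peak in these lists is not read here as repression of the gene. In wild type 62.3% of all protein-coding genes had a peak within 2 kb of a gene end. Among those with at least 21 CpG in the promoter it was 93.2%. The Ezh2-cKO list held 33739 peaks, against 28057 in wild type. How far the peaks of these lists report H3K27me3 itself was not tested.

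The immunoprecipitated libraries held between 25655346 and 34786292 fragments after removal of duplicates, and the lists held between 27013 peaks in Jmjd3-cKO and 49405 in Utx-cKO. With n = 1 per genotype no difference between genotypes has a replicate check, and 95% Wilson intervals cover counting error only. Neighbouring genes are not independent, so the intervals are too narrow for that reason as well. The library titles carry prefixes that differ between wild type, Ezh2-cKO and the other knockouts. Utx-cKO and Jmjd3-cKO have the same prefix, but each still rests on 1 immunoprecipitated library. A genotype and its library therefore cannot be told apart in any comparison. Of 7 chondrocyte marker genes, Sox9 and Col2a1 among them, 7 were marked in each list. Of 7 markers of other cells, the macrophage gene Cd68 was marked in every list, while Pecam1, Cdh5, Ptprc and Myod1 were marked in none. Des was marked in Utx-cKO and Adipoq in Utx-cKO and Jmjd3-cKO, which makes 3 of 7 in Utx-cKO, 2 of 7 in Jmjd3-cKO and 1 of 7 in the other lists. A peak list does not measure expression, so these genes do not check the cell type.

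The promoter sequences below are the 250 bases before the RefSeq start of 6 zinc finger genes, printed 5′ to 3′ on the strand of the gene, with every CpG in capitals. They are RefSeq sequences of build GRCm38.p6. They show the range from a CpG-rich promoter under the highest wild-type peak to duplicated promoters with no peak at all. Zfp592 had the highest wild-type fold enrichment, the authors' value of a peak over its own input. Zfp729a and Zfp738 lie beside Zfp729b, the member with a wild-type peak near a gene end but no Jmjd3-cKO peak within 5 kb of either end. Zfp955a, Zfp955b and Zfp97 had no peak in any list.
Zfp592, chr7:80993434-80993683, plus strand: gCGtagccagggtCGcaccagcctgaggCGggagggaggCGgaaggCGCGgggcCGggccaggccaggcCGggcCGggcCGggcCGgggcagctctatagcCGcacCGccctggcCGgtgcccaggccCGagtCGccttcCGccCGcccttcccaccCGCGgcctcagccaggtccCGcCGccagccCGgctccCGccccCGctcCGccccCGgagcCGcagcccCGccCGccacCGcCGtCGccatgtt
Zfp729a, chr13:67637782-67638031, minus strand: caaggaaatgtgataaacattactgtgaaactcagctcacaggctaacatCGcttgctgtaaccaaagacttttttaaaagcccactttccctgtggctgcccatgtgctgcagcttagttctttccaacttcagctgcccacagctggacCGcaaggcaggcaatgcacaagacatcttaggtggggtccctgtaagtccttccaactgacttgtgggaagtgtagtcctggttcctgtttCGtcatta
Zfp738, chr13:67683513-67683762, minus strand: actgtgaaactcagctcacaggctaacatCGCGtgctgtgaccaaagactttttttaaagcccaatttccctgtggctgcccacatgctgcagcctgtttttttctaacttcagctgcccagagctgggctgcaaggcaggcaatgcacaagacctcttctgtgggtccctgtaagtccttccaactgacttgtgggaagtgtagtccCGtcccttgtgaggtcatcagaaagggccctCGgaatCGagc
Zfp955a, chr17:33255146-33255395, minus strand: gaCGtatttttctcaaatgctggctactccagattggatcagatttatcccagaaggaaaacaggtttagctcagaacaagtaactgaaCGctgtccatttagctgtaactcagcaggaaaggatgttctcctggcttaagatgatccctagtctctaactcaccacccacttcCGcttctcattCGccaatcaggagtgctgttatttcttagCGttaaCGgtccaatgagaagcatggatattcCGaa
Zfp955b, chr17:33289294-33289543, plus strand: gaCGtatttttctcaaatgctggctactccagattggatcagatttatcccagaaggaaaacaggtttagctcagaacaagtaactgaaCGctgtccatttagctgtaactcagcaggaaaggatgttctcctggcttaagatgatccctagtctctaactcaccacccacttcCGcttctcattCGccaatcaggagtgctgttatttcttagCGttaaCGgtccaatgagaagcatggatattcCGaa
Zfp97, chr17:17121133-17121382, plus strand: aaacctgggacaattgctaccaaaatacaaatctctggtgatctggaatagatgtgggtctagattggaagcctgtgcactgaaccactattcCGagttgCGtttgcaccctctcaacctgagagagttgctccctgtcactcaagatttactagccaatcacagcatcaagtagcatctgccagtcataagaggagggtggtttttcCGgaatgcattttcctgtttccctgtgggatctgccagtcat
The stretch of Zfp592 holds 33 CpG, against 3 in Zfp729a, 5 in Zfp738, 7 in each of Zfp955a and Zfp955b, and 3 in Zfp97. Zfp955a and Zfp955b are identical over 250 of 250 bases, on opposite strands of chromosome 17. In a global alignment Zfp729a and Zfp738 share 204 identical bases over 273 columns, an identity of 74.7%.

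The term marked stands here for a gene with a peak at most 2 kb away from one or both of its ends. In wild-type chondrocytes 155 of 176 zinc finger genes were marked (88.1%, 82.4 to 92.1%), against 62.3% of all protein-coding genes. The counts in the knockouts were 157 in the Ezh2 knockout (89.2%, background 64.5%), 159 in the Utx knockout (90.3%, background 67.7%) and 154 in the Jmjd3 knockout (87.5%, background 63.0%). The members' share thus lay above the background in each list and differed between lists by less than the width of its interval. A set of 150 members was marked in all 4 lists (85.2%), 16 in none (9.09%) and 10 in some. Over all protein-coding genes 60.4% were marked in all 4 lists, 31.1% in none and 1875 of 21887 in some. Zfp genes of other chromosomes were marked in 182 of 221 cases in wild type (82.4%, 76.8 to 86.8%). Receptor families of the same 3 chromosomes, which also lie in tandem clusters, were seldom marked: 0 of 176 Vmn1r pheromone receptor genes carried a peak in any list, which allows a share of up to 1.70% taking 3 counts as the floor (Wilson upper limit 2.14%), and in wild type 1 of 84 Vmn2r genes and 1 of 303 Olfr odorant receptor genes did.

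By chromosome, the wild-type share was 85 of 93 on chromosome 7 (91.4%, 83.9 to 95.6%), 29 of 37 on chromosome 13 (78.4%, 62.8 to 88.6%) and 41 of 46 on chromosome 17 (89.1%, 77.0 to 95.3%). The corresponding shares of the other protein-coding genes were 49.5%, 63.1% and 63.1%. Chromosome 13 stood lowest in all 4 lists, at 29 of 37 in both Ezh2-cKO and Utx-cKO and 27 of 37 in Jmjd3-cKO (73.0%, 57.0 to 84.6%). Chromosome 7 held 87, 88 and 86 marked members in Ezh2-cKO, Utx-cKO and Jmjd3-cKO, and chromosome 17 held 41, 42 and 41. The intervals of the 3 chromosomes overlap in every list but Jmjd3-cKO, where that of chromosome 7 (85.3 to 96.3%) lies above that of chromosome 13. The intervals are too narrow, so no difference is read from this.

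**Figure D1:**
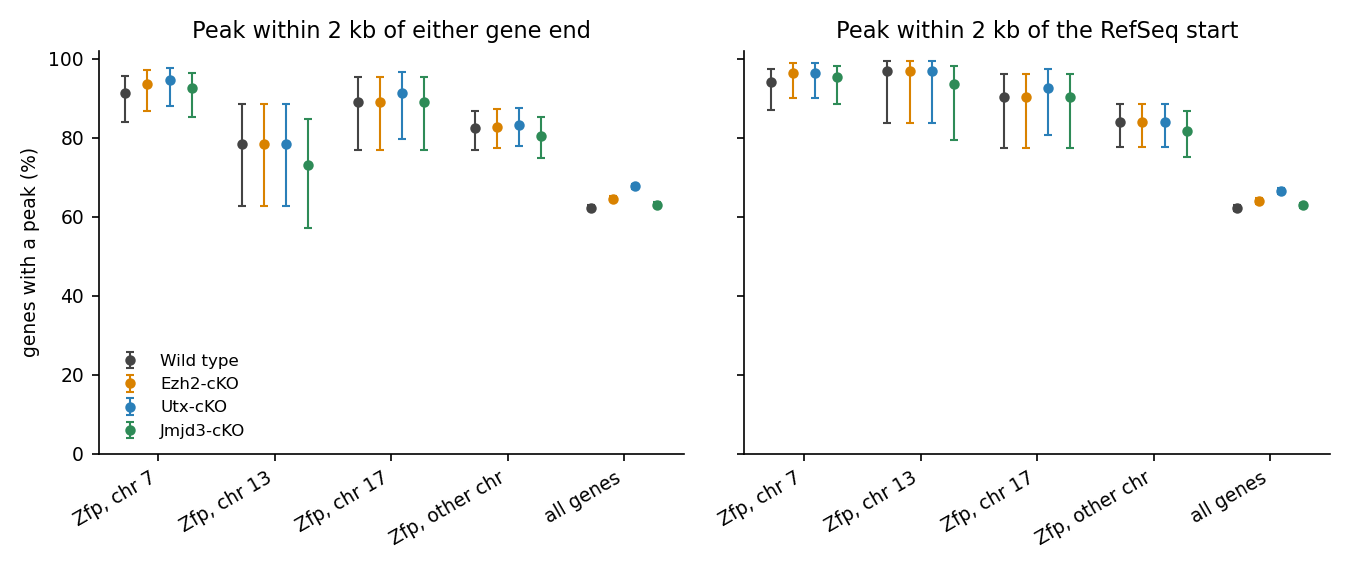
Share of genes with a peak (%, points) and 95% Wilson intervals (bars, counting error only) for the zinc finger genes of each chromosome, for Zfp genes of other chromosomes and for all protein-coding genes, in 4 genotypes with 1 library each. By gene ends (left) chromosome 13 is lowest among the 3 chromosomes at 78.4% in wild type, and by the RefSeq start (right) it is highest at 96.8%.

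The low share on chromosome 13 depended on how a gene was marked. RefSeq promoter entries, which give the start and strand of the main transcript, were matched by gene ID for 157 members. Within 2 kb of these starts a wild-type peak was found at 30 of 31 members of chromosome 13 (96.8%, 83.8 to 99.4%), 80 of 85 of chromosome 7 (94.1%, 87.0 to 97.5%) and 37 of 41 of chromosome 17 (90.2%, 77.5 to 96.1%). Over all members it was 147 of 157 (93.6%, 88.7 to 96.5%), against a background of 62.2%, and 146 Zfp genes of other chromosomes out of 174 (83.9%, 77.7 to 88.6%). By start the wild-type intervals of the members and of the other Zfp genes nearly touch, with limits of 88.7% and 88.6%, and by gene ends they overlap. The chromosomes were chosen from earlier results of these lists and the intervals are too narrow. No difference is therefore read from these limits.

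In wild type 9 members had a peak at the start but none within 2 kb of the annotated gene ends, their RefSeq start lying inside the gene span and away from its ends. They were Zfp787, Zfp61 and Zfp790 on chromosome 7, Zfp708, Zfp759, Zfp458, Zfp595 and Zfp459 on chromosome 13, and Zfp229 on chromosome 17. The nearest wild-type peak lay 7825 bp from the ends of Zfp708, 6493 bp from those of Zfp759, 8897 bp from those of Zfp458 and 6129 bp from those of Zfp595, while a RefSeq start of each of these 4 genes lay inside a peak. Zfp790 and Zfp229 showed the same at shorter distances, 3552 and 2332 bp. The 5 genes of chromosome 13 belong to 1 cluster, named 13-A below, in which 20 of 20 members with a promoter entry had a wild-type peak at the start. Near the limit of 2 kb, Zfp109 and Zfp59 lay just inside in wild type, each at 1942 bp, and Zfp787 and Zfp229 just outside, at 2212 and 2332 bp.

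The wild-type peaks sat on the starts and reached further into the gene than upstream of it. With 1 start taken per gene, 146 members had a wild-type peak within 2 kb of it, and the strongest such peak covered the start in 139 of them. Along the gene, with the start at 0, the median upstream edge lay at -580 bp (quartiles -963 and -369 bp) and the median downstream edge at 1038 bp (quartiles 800 and 1234 bp). In 110 of the 146 genes (75.3%) the downstream arm was the longer one.

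**Figure D2:**
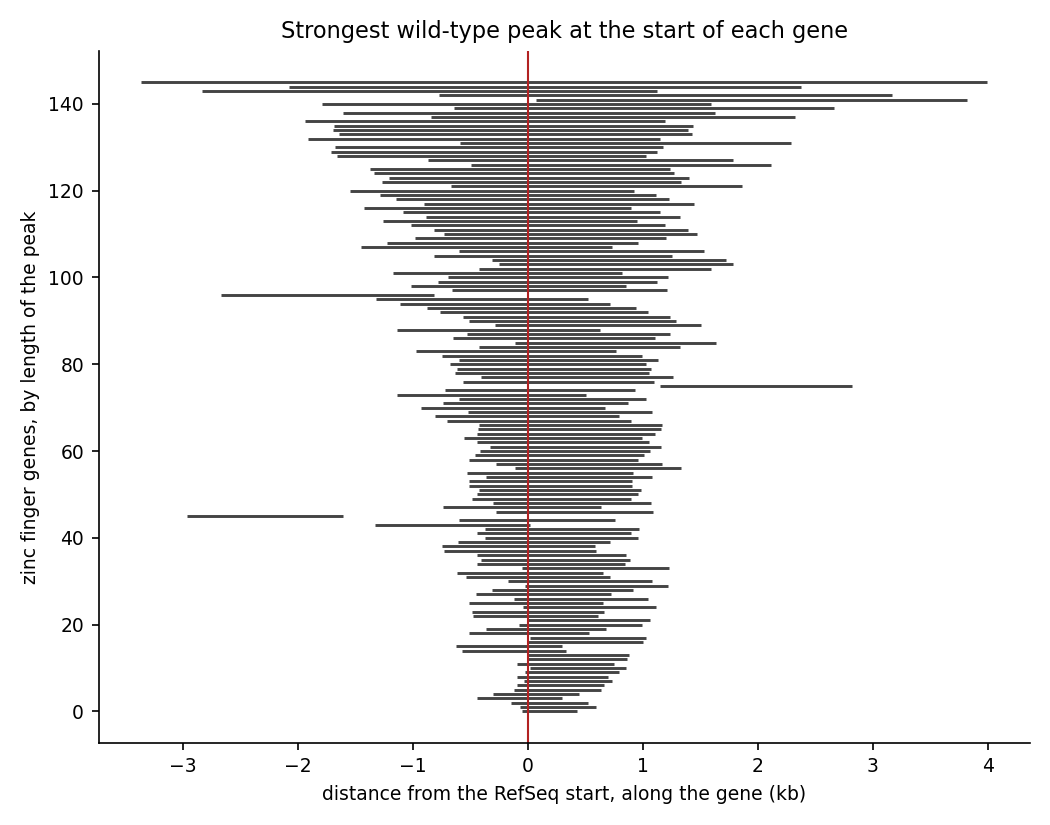
Extent of the strongest wild-type peak at the RefSeq start of 146 zinc finger genes (horizontal lines, 1 per gene, ordered by peak length), in kb along the direction of the gene, with the start at 0 (red line). Most lines cross the start, and the median edges lie at -580 bp and 1038 bp.

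No list had a peak at the start of 7 members with a promoter entry: Zfp541, Zfp977 and Zfp936 on chromosome 7, Zfp640 on chromosome 13, and Zfp97, Zfp955a and Zfp955b on chromosome 17. Most of these promoters were duplicated sequence. The share of 31-base words of the 300-base promoter window that also occur in the window of another gene was 29.6% in Zfp977, 31.5% in Zfp936, 64.1% in Zfp640, 97.0% in Zfp97 and 100% in both Zfp955a and Zfp955b, while it was 0 in Zfp541. Among all members the start was marked in wild type in 113 of 117 with no copied word, 27 of 29 with some and 7 of 11 with at least 50% copied. The same shares over all protein-coding genes were 69.8%, 18.5% and 5.96%. Reads from identical copies cannot be placed uniquely, and whether this bears on the missing peaks was not tested. The 7 copied promoters with a peak included Zfp942 and Zfp943, with 88.5% and 89.3% copied, and Zfp944 and Zfp758, with 79.3% and 86.7%, so a copied promoter did not always lack a peak.

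Of the 3 members with the highest wild-type fold enrichment on each chromosome, Zfp457 alone lay in one of the clusters defined below. On chromosome 7 Zfp592, whose protein acts with Zmynd8 in a chromatin complex, had a fold enrichment of 16.6 in wild type, 18.7 in the Ezh2 knockout, 19.8 in the Utx knockout and 21.5 in the Jmjd3 knockout. Fold enrichment depends on each list's own input and depth, so it ranks genes within a list only. Among the 13210 genes marked in all 4 lists, Zfp592 stood at rank percentiles 99.5, 99.6, 99.4 and 99.2 in that order of genotypes, where 100 is the strongest. Zfp507 stood at 91.4, 86.0, 91.7 and 98.7. Zfp143, an activator of many housekeeping and small RNA promoters, stood at 89.9, 91.5, 97.0 and 78.7. Zfp592 was thus near the top of every list, and Zfp143 was lowest in Jmjd3-cKO.

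On chromosome 13 the strongest wild-type peak lay at Zfp131, which encodes a BTB zinc finger protein, with a fold enrichment of 10.6 and rank percentiles of 90.6, 93.2, 92.7 and 94.5. Zfp346, which encodes a protein that binds double-stranded RNA, followed with 80.0, 64.8, 73.3 and 55.9. The third was Zfp457 in the largest cluster, whose percentile was 66.3 in wild type and 32.7, 30.1 and 17.1 in the knockouts. On chromosome 17 Zfp318, which controls the switch to IgD expression in B cells, had a wild-type fold enrichment of 12.1 and percentiles of 95.5, 92.6, 84.0 and 97.7. Zfp36l2 stood at 94.4, 96.1, 91.4 and 92.2, and Zfp523, a close relative of Zfp143, at 91.5, 92.8, 86.9 and 90.9. Zfp131, Zfp318, Zfp36l2 and Zfp523 thus stood at 84.0 or above in every list, while Zfp346 and Zfp457 were lowest in Jmjd3-cKO.

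Peaks at zinc finger genes were narrower at the median than those of all marked genes, also on other chromosomes. The strongest peak had a median width of 1667 bp in wild type (quartiles 1337 and 2199 bp), 1603 bp in the Ezh2 knockout, 1893 bp in the Utx knockout and 1598 bp in the Jmjd3 knockout. All marked genes of the same lists had medians of 1951, 2025, 2352 and 1948 bp. Zfp genes of other chromosomes had 1731.5, 1804, 1969.5 and 1740.5 bp. Peaks of 4 kb or more were found at 5 members in wild type (3.23% of those marked), 6 in the Ezh2 knockout, 15 in the Utx knockout and 8 in the Jmjd3 knockout, against 11.1%, 12.8%, 20.6% and 12.0% of all marked genes. Among marked Zfp genes of other chromosomes 7.69%, 9.84%, 14.7% and 8.99% had a peak of that length. The Utx-cKO list was wider for members and for all genes alike.

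The longest peaks belonged to the mRNA decay genes rather than to C2H2 genes. Zfp36, which encodes tristetraprolin, carried a peak of 7360 bp in wild type, 12808 bp in the Ezh2 knockout, 19158 bp in the Utx knockout and 11764 bp in the Jmjd3 knockout. Its relative Zfp36l2 carried 6895, 8304, 11556 and 7906 bp. Both genes had their shortest peak in wild type and their longest in Utx-cKO. Zfp36 was long without being strong: its rank percentiles were 34.8, 60.3, 44.1 and 41.6. Zfp541, a gene of meiotic spermatocytes, had a peak of 6369 bp in wild type, 9703 bp in Utx-cKO and 3597 bp in Jmjd3-cKO that lay beyond its 3′ end, at a nearest distance of 1571 bp in wild type. In Ezh2-cKO the nearest peak was 2225 bp away, so Zfp541 was not marked there. Other long wild-type peaks were those of Zfp598, which encodes a ubiquitin ligase of stalled ribosomes, with 3942 bp, Zfp131 with 3378 bp and Zfp367 with 3124 bp.

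Members ranked below the middle of the marked genes in wild type and lowest in Jmjd3-cKO. Over the 150 members marked in all lists the median rank percentile was 43.6 in wild type (95% interval of the median 36.7 to 48.6), 46.6 in the Ezh2 knockout (38.6 to 52.4), 46.8 in the Utx knockout (38.8 to 51.9) and 35.9 in the Jmjd3 knockout (30.1 to 43.0). Zfp genes of other chromosomes had medians of 63.4, 66.0, 64.3 and 63.3. The Jmjd3-cKO interval of the members overlaps that of wild type. The rank was lower in Jmjd3-cKO than in wild type at 94 of 150 members (62.7%, 54.7 to 70.0%), against 50.0% of all genes marked in every list and 92 of 178 Zfp genes of other chromosomes (51.7%). The counts were 71 in Ezh2-cKO (47.3%, background 49.9%) and 72 in Utx-cKO (48.0%, background 49.8%). With starts in place of gene ends the Jmjd3-cKO share was 57.2% of 145 members (49.1 to 65.0%), an interval that includes the background. The 3 comparisons share the wild-type library. The Jmjd3-cKO library had the fewest fragments, 25655346 against 29222251 in wild type, and the longest fragment size, 246 against 228 bp, and their part in the result was not tested.

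Values by chromosome are given without a test. On chromosome 7 the median rank was 48.0 in wild type, 51.7 in the Ezh2 knockout, 53.8 in the Utx knockout and 43.0 in the Jmjd3 knockout. On chromosome 13 it was 34.2, 33.9, 29.8 and 25.7, and on chromosome 17 it was 47.5, 47.4, 35.4 and 30.7. Other genes of the same chromosomes had medians of 45.8, 47.2, 48.2 and 46.7 on chromosome 7, 50.2, 49.3, 49.5 and 48.6 on chromosome 13, and 50.2, 52.8, 52.7 and 50.7 on chromosome 17. From wild type to Jmjd3-cKO the members' medians differed by more than those of the other genes on each of the 3 chromosomes. The same held from wild type to Utx-cKO, where the members' median was higher on chromosome 7 and lower on chromosomes 13 and 17. From wild type to Ezh2-cKO the medians of the other genes differed by more on chromosomes 13 and 17. In Jmjd3-cKO the rank was lower than in wild type at 50 of 83 members on chromosome 7 (60.2%), 20 of 27 on chromosome 13 (74.1%) and 24 of 40 on chromosome 17 (60.0%). Among the other genes of these chromosomes the shares were 50.1%, 51.2% and 45.5%. In Utx-cKO the members' rank was lower at 30 of 83 (36.1%), 14 of 27 (51.9%) and 28 of 40 (70.0%), against 48.2%, 53.5% and 45.2% of the other genes.

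**Figure D3:**
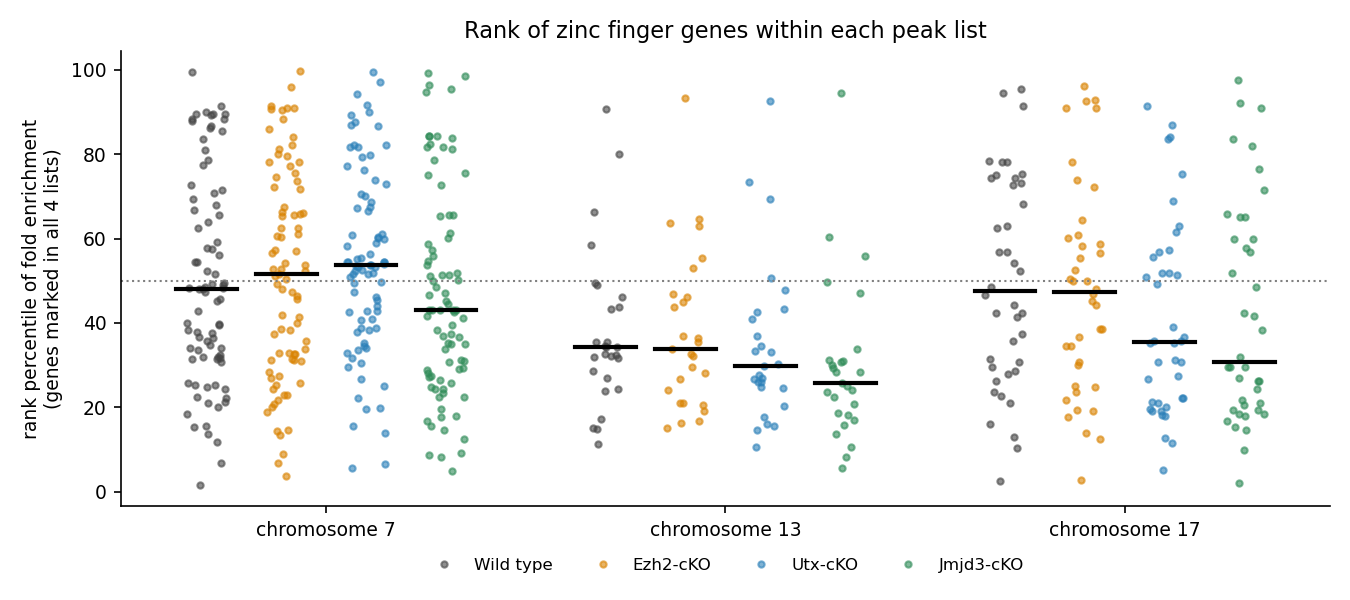
Rank percentile of fold enrichment (y axis, 100 is strongest) of each zinc finger gene marked in all 4 lists (points), by chromosome and genotype, with medians (black bars) and the middle of all genes (dotted line at 50). Medians on chromosome 13 lie between 25.7 and 34.2 in all 4 lists, and on chromosome 17 those of Utx-cKO and Jmjd3-cKO, 35.4 and 30.7, lie below those of wild type and Ezh2-cKO.

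Of the 176 members 129 lay in 13 clusters, defined as runs of at least 4 members with gaps of up to 250 kb and named here by chromosome and letter. Inside clusters 113 of 129 members were marked in wild type (87.6%, 80.8 to 92.2%), and outside 42 of 47 (89.4%, 77.4 to 95.4%). Among members marked in all lists, the median rank inside clusters was 39.5 in wild type and 33.8 in Jmjd3-cKO. Outside clusters it was 52.3 and 48.5. The rank was lower in Jmjd3-cKO than in wild type at 72 of 109 members inside (66.1%) and 22 of 41 outside (53.7%), against a background of 50.0%. The largest was cluster 13-A, 23 members from Zfp712 to Zfp273 over 788 kb (chr13:67038594-67827000), followed by 17-A, 18 members from Zfp677 to Zfp946 over 1073 kb (chr17:21383707-22456689), and 7-G, 15 members from Zfp84 to Zfp146 over 401 kb (chr7:29768552-30169775). The clusters did not share 1 pattern across genotypes.

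In cluster 17-A the rank was lower in Utx-cKO than in wild type at 16 of 16 members marked in all lists (100%, 80.6 to 100%), against the background of 49.8%, and the median was 22.2 against 50.6. It was lower at 13 of 16 in Jmjd3-cKO (median 29.5) and at 11 of 16 in Ezh2-cKO (median 38.6). The 16 members rest on fewer peaks, since neighbours share some of them: with 1 member per wild-type peak the Utx-cKO share was still 100% of 13 members. By starts it was 93.8% of 16. Zfp948 stood at 37.3 in wild type, 34.5 in the Ezh2 knockout, 12.6 in the Utx knockout and 14.6 in the Jmjd3 knockout. Zfp995 stood at 75.3, 56.6, 57.2 and 26.3, and Zfp51 at 44.3, 23.7, 20.1 and 17.8. These 3 genes were chosen after their values were seen. Pairs of neighbours differed from them: Zfp942 and Zfp943 shared 1 peak at 74.5, 49.9, 35.2 and 65.1, and Zfp944 and Zfp758 another at 56.9, 38.6, 22.2 and 59.8, each with its lowest value in Utx-cKO. Cluster 17-B, with 13 members from Zfp871 to Zfp414, went the other way in Utx-cKO, lower at 2 of 10 members marked in all lists. Its medians were 32.1 in wild type, 44.5 in the Ezh2 knockout, 33.5 in the Utx knockout and 26.6 in the Jmjd3 knockout. The lower Utx-cKO ranks on chromosome 17 were thus not found in both of its clusters.

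In cluster 13-A the rank was lower than in wild type at 14 of 16 members in Jmjd3-cKO (87.5%, 64.0 to 96.5%), 9 of 16 in Utx-cKO and 7 of 16 in Ezh2-cKO. The background shares were 50.0%, 49.8% and 49.9% in that order. The medians were 33.4 in wild type, 32.5 in the Ezh2 knockout, 26.9 in the Utx knockout and 21.8 in the Jmjd3 knockout. Peaks in the span numbered 26 in wild type, Ezh2-cKO and Utx-cKO and 23 in Jmjd3-cKO, and they covered 34.7, 34.7, 34.6 and 26.2 kb. Zfp729a, whose promoter is shown above, stood at 49.0 in wild type, 19.0 in the Ezh2 knockout, 15.7 in the Utx knockout and 5.69 in the Jmjd3 knockout, and Zfp738 at 46.0, 52.9, 26.8 and 15.7. The peak at Zfp429 was 1048 bp long in wild type, 956 bp in the Ezh2 knockout, 704 bp in the Utx knockout and 294 bp in the Jmjd3 knockout. Jmjd3-cKO was the lowest list for each of these 3 genes, of which Zfp429 was chosen after its values were seen.

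Clusters 7-E, 7-F and 7-G of chromosome 7 had higher medians in Utx-cKO than in wild type. In 7-G the median rank was 34.0 in wild type, 37.8 in the Ezh2 knockout, 51.5 in the Utx knockout and 43.0 in the Jmjd3 knockout, and it was lower than in wild type at 4 of 14 members in Utx-cKO. In 7-F, 8 members from Zfp607b to Zfp850, it was 48.8, 67.0, 70.7 and 51.0, lower in Utx-cKO at 1 of 8. In 7-E, 12 members from Zfp180 to Zfp575, it was 25.3, 35.6, 53.8 and 31.2. Cluster 7-J, 10 members from Zfp553 to Zfp646 among 22 other genes, had the highest medians of all 13 clusters, at 74.5, 73.4, 73.9 and 78.5. In 7-D, 5 members from Zfp329 to Zfp446, the rank was lower in Jmjd3-cKO at 5 of 5, with a median of 31.1 against 54.4 in wild type and 54.4 in Utx-cKO. The other clusters of chromosome 7 did not share 1 direction in Utx-cKO: 7-H had a median of 29.5 against 45.6 in wild type and was lower at 2 of 3 members, and 7-A was lower at 4 of 6 with a median of 53.4 against 50.9. 7-B, 7-C and 7-I had medians of 33.9, 32.8 and 54.1 in Utx-cKO against 31.9, 20.5 and 49.2. Differences between clusters were not tested.

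**Figure D4:**
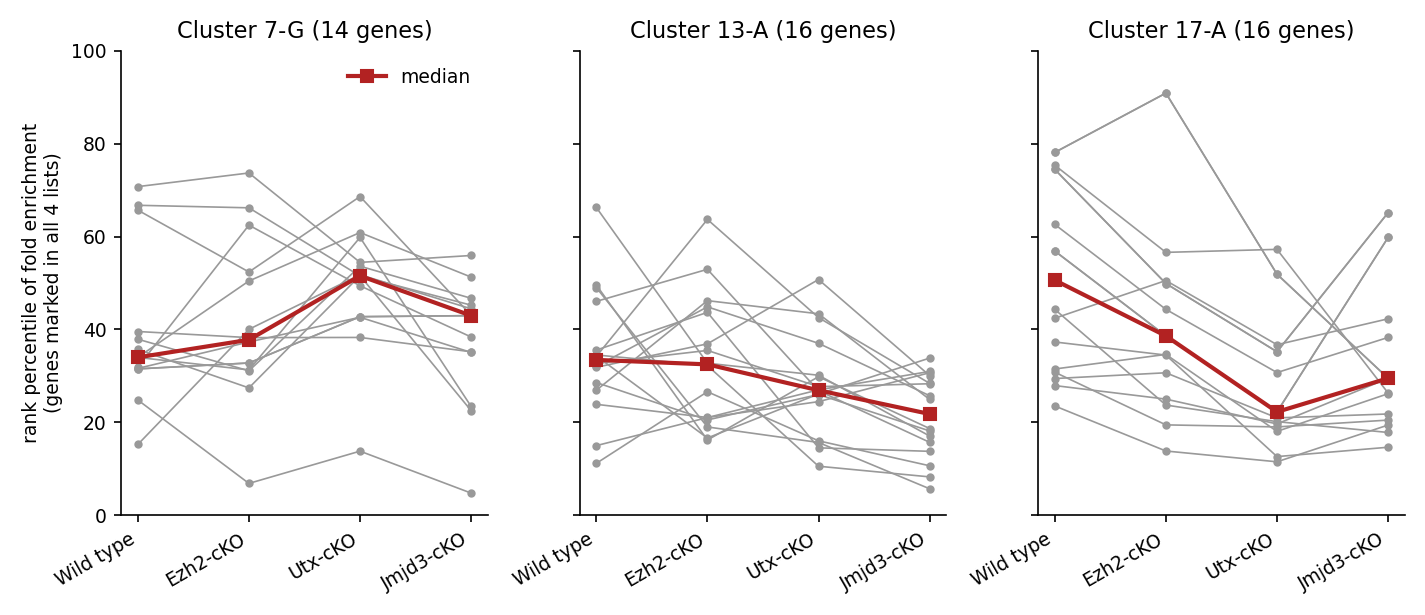
Rank percentile of fold enrichment (y axis, 100 is strongest) in the 4 peak lists for the members of the 3 largest clusters that were marked in all lists (grey lines, 1 per gene, joining the values of that gene) and their median (red). The medians of 17-A go from 50.6 in wild type to 22.2 in Utx-cKO, those of 13-A are lowest in Jmjd3-cKO at 21.8, and those of 7-G are highest in Utx-cKO at 51.5.

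A single member, Zfp729b in cluster 13-A (chr13:67589439-67609707), was marked in wild type but had its nearest Jmjd3-cKO peak more than 5 kb away, 0.568% of the members against 1.10% of all protein-coding genes. Its peak had a fold enrichment of 5.78 and 1415 bp in wild type, 7.21 and 1567 bp in Ezh2-cKO, and 5.27 and 1368 bp in Utx-cKO, whereas the nearest Jmjd3-cKO peak lay 27170 bp away. The count of 1 was also found at a distance of 10 kb. At a distance of 2 kb it was 3, with Zfp109 and Zfp456 added by Jmjd3-cKO peaks at 2288 and 2614 bp. It was 4 when peaks under a fold enrichment of 4 were left out. The share over all genes was not taken for these settings. The start of Zfp109 lay inside a peak in every list. That of Zfp456 lay inside a peak in wild type, Ezh2-cKO and Utx-cKO, but 14793 bp from the nearest Jmjd3-cKO peak. By its start, Zfp456 thus also lacked a Jmjd3-cKO peak. Zfp729b has no promoter entry. Rsl1 is a KRAB gene of the same cluster under another symbol and a repressor of sex-dependent liver genes. It showed the same absence by gene ends as Zfp729b. Its fold enrichment was 5.90 in wild type, 5.49 in Ezh2-cKO and 5.66 in Utx-cKO, with the nearest Jmjd3-cKO peak at 10934 bp. Over all cluster spans 2 of 203 genes (0.985%) were in this set, against 238 of 21684 genes elsewhere (1.10%), so the share was near the background. Zfp729b has close relatives beside it, and how reads were divided among copies was not tested.

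The other sets were as small. Zfp994 in 17-A was the 1 member marked in wild type whose nearest Ezh2-cKO peak was over 5 kb away (0.568%, background 0.699%); its fold enrichment was 4.94 in wild type, 3.29 in Utx-cKO and 5.81 in Jmjd3-cKO. No member was marked in wild type without a Utx-cKO peak within 5 kb (background 0.288%). In the other direction Zfp575, Zfp819, Zfp941 and Zfp811 were marked in Ezh2-cKO (2.27%, background 2.19%) and in Utx-cKO (2.27%, background 4.18%) with no wild-type peak within 5 kb, and Zfp575 and Zfp941 in Jmjd3-cKO (1.14%, background 1.59%). These peaks were short and weak. At Zfp575 the fold enrichment was 2.38 in the Ezh2 knockout, 5.04 in the Utx knockout and 3.76 in the Jmjd3 knockout, over 273, 480 and 379 bp. At Zfp941 it was 3.41, 3.66 and 2.52 over 351, 430 and 301 bp. Zfp819 had 3.07 and 2.60, and Zfp811 had 2.44 and 2.98, in Ezh2-cKO and Utx-cKO. Each of these shares lay at or below the background except that of Ezh2-cKO, which exceeded it by less than 1 gene.

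Neighbouring members shared peaks, so members counted above are not all independent. In wild type 8 peaks were each the strongest peak of 2 members. The longest was shared by Zfp668 and Zfp646 (chr7:127873266-127877717, 4452 bp), then by Zfp524 and Zfp865 (3002 bp) and by Zfp942 and Zfp943 (2609 bp). The strongest peak lay away from the gene's own start at 8 of 139 marked members with a promoter entry in wild type, among them Zfp53, whose peak at its 3′ end is also the strongest of Zfp52. That shared peak measured 1857 bp in wild type, 1874 bp in the Ezh2 knockout, 4915 bp in the Utx knockout and 5057 bp in the Jmjd3 knockout, with rank percentiles of 78.1, 90.9, 51.9 and 29.5. The Utx-cKO and Jmjd3-cKO peaks also cover the start of Zfp52, where wild type has a separate peak, and the number of peaks counted at Zfp52 was 2 in wild type and Ezh2-cKO and 1 in the other lists. The values therefore compare 1 called peak with a longer call over both places. The 2 genes were chosen after their values were seen.

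Promoters of the members were poor in CpG beside those of other genes. The median count was 12 CpG in the 300-base window, against 17 for Zfp genes of other chromosomes and 15 for all genes. In wild type 54 of 68 members with at most 10 CpG were marked (79.4%), 57 of 60 with 11 to 20 and 28 of 29 with 21 or more (96.6%), while the shares over all genes were 24.4%, 85.2% and 93.2%. The gap to all genes was widest at promoters with few CpG. The rank followed CpG too: its median was 36.8 at most 10 CpG, 39.5 at 11 to 20 and 57.4 above that in wild type, and 27.6, 42.6 and 62.7 in Jmjd3-cKO. Over all genes the medians rose as well, with 28.2, 42.7 and 60.4 in wild type and 25.8, 42.0 and 61.4 in Jmjd3-cKO. The rise was thus not particular to the members. Spearman's rho between CpG count and rank across the 135 members with both values was 0.24 in wild type, 0.29 in the Ezh2 knockout, 0.32 in the Utx knockout and 0.43 in the Jmjd3 knockout, given as a description because neighbouring genes share peaks and all genes of a list share 1 library. Members with at most 10 CpG were lower in Jmjd3-cKO than in wild type in 69.2% of cases, against 63.3% of the Zfp genes of other chromosomes and 55.7% of all genes in that range.

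**Figure D5:**
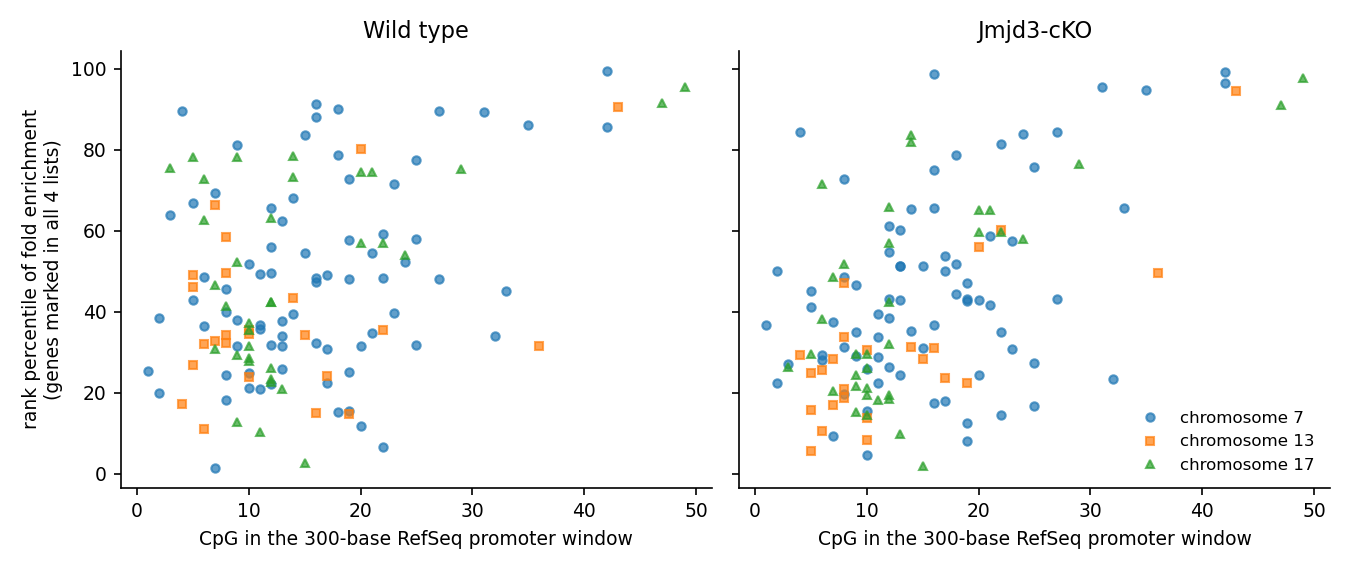
CpG count of the 300-base promoter window (x axis) against rank percentile of fold enrichment (y axis, 100 is strongest) for 135 zinc finger genes marked in all lists, in wild type (left) and Jmjd3-cKO (right), with symbols by chromosome. Spearman's rho is 0.24 in wild type and 0.43 in Jmjd3-cKO.

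Short motifs were counted on both strands of the same window. The ETS core CCGGAAG occurred in 34 of 157 member promoters (21.7%), against 12.3% of all promoters, and in 21.8% of the Zfp genes of other chromosomes. The CCAAT box (CCAAT) occurred in 47.8% against 38.4%, and in 47.1% of the other Zfp genes. The TATA box (TATAAA) occurred in 5.10% against 12.9%, and in 5.75% of the other Zfp genes. The core of the Zfp143 motif, ACTACAA, occurred in 7.64% against 3.76%, and in 5.75% of the other Zfp genes. A match shows only that the letters are present.

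Members of known function were marked in every list. Zfp57, which maintains methylation at imprinted loci, had rank percentiles of 52.3 in wild type, 46.8 in the Ezh2 knockout, 49.2 in the Utx knockout and 24.3 in the Jmjd3 knockout. Zfp568, a KRAB repressor of a placental Igf2 transcript, stood at 70.7, 73.7, 54.4 and 55.9. Zfp110 and Zfp369, which encode binding partners of the p75 neurotrophin receptor, stood at 54.4, 67.5, 54.4 and 31.1 and at 43.8, 33.9, 47.8 and 24.0. Zfp296, a factor of pluripotent cells, was low in each list, at 15.6, 13.4, 19.9 and 8.20. The 7 members of known function are these 5 and Zfp36 and Zfp143 described above. Their lowest percentile lay in Utx-cKO for Zfp568, in wild type for Zfp36 and in Jmjd3-cKO for the rest. How often the lowest lies in Jmjd3-cKO over all genes was not counted, so no result is read from this. Among 21 corepressors and heterochromatin partners of KRAB proteins, 18 were marked in every list, with median ranks of 81.3, 75.9, 84.9 and 83.4. In the same order of genotypes, Trim28 had rank percentiles of 58.9, 69.4, 86.0 and 85.9, and Setdb1 of 57.3, 37.1, 33.3 and 38.9. The 3 without a peak near either gene end were Dnmt1, Dnmt3a and Tasor, each of which had a RefSeq start inside a peak in all 4 lists.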

How the data were processed

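H3K27me3 was profiled by ChIP-seq in 4 genotypes with 8 libraries, 1 immunoprecipitated and 1 input library each. Per the file headers, broad peaks were called with MACS 2.1.2 in each genotype separately against its own input, at a q-value of 0.05 and with at most 1 duplicate fragment kept. The submitters' processing notes name Bowtie2 and MACS2, and also HOMER 4.10, ChIPseeker, FastQC 0.11.5 and deepTools 2.4.1. The deposited values per peak are the length in bp, the mean pileup signal, the −log10 p-value, the −log10 q-value and the fold enrichment (a ratio of pileup to the local input), all as the authors' caller gave them.

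The genome build is not given in the sources used here. Peaks matched RefSeq GRCm38.p6 genes: 13639 genes were marked in wild type, against 4837 and 4790 when genes were moved by 20 kb to either side (members 155, against 59 and 63). Each gene took the peak of highest fold enrichment within 2 kb of either end. Rank percentiles run over the 13210 genes marked in all 4 lists. Peaks marked in one list and absent in another had no peak within 5 kb in the latter. The search was tested on simulated data and found 200 of 200 genes given a peak among 21887. CpG, motifs and copied 31-base words came from the 300-base RefSeq promoter windows (250 bases before the start and 50 after), matched for 157 of 176 members.

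With 1 library per genotype no test was made. Wilson intervals (95%) and order-statistic intervals of medians cover counting error only, and reads without molecular identifiers are not independent molecules. Named genes are the 3 with the highest fold enrichment and the 2 with the longest peak in wild type on each chromosome, those in sets that differ between lists, unmarked members of the 3 largest clusters, the 3 longest shared peaks and members of known function. Others are named as chosen after their values were seen. The members and gene lists were chosen with earlier results of these data known. The tools were scipy 1.17.1, pandas 2.3.3, numpy 2.4.6, Biopython 1.88 and matplotlib 3.10.9 under Python 3.11.15.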

Additional observations from a re-analysis of the deposited data

How the results depend on the processing

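The 63 results were recomputed under 15 alternatives. Of 448 recomputed values 400 stayed within their interval or within 1.5 times the count, and 48 moved. Whether a comparison changed its direction was not scored. In wild type chromosome 13 had the lowest share of the 3 chromosomes by gene ends and the highest by RefSeq start. With the RefSeq start alone the share marked was 93.6% in wild type, 94.9% in the Ezh2 knockout, 95.5% in the Utx knockout and 93.6% in the Jmjd3 knockout, and on chromosome 13 it was 96.8%, 96.8%, 96.8% and 93.5%, while 1 member was marked in Jmjd3-cKO and not in wild type. With a peak anywhere over the gene the shares were 93.8%, 94.9%, 96.6% and 93.8%. With peaks of a fold enrichment of 4 or more the wild-type share was 81.8%, the median rank in the list was 36.5 in wild type, 40.1 in Ezh2-cKO and 32.0 in Jmjd3-cKO, and the median rank among genes marked in all lists was 36.3 in wild type and 28.9 in Jmjd3-cKO. Under the same limit 2 members were marked in wild type and absent in the Ezh2 knockout, 2 absent in the Utx knockout and 4 absent in the Jmjd3 knockout, and 9 and 6 were marked in Utx-cKO and Jmjd3-cKO and absent in wild type. With q-values of 0.001 or less 2 members marked in Ezh2-cKO, and likewise 2 marked in Utx-cKO, lacked a peak in wild type. A window of 1 kb gave a wild-type share of 82.4%, and on chromosome 7 shares of 82.8% in wild type, 86.0% in Ezh2-cKO and 84.9% in Jmjd3-cKO. A window of 5 kb gave 97.8% in the Ezh2 knockout, 97.8% in the Utx knockout and 96.8% in the Jmjd3 knockout on chromosome 7, with 1 member marked in wild type and absent in Utx-cKO and 2 absent in Jmjd3-cKO. An absence distance of 2 kb gave 3 members absent in Jmjd3-cKO. The causes of these moves were not tested, beyond the wider or narrower search itself. For the counts of members marked in a list and absent in another, the share over all protein-coding genes was not taken under the changed settings. No result about the members is therefore read from those counts. Merging peaks within 3 kb, taking the same number of strongest peaks (27013) from each list, and other cluster gaps (100 and 500 kb) moved none of the results they were run on. The peak anywhere over the gene, the ranks by start and the single member per wild-type peak were added after seeing the data. No paired analysis was possible because each genotype has 1 library and no replicate numbers, and for the same reason no replicate could be left out.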

Other observations

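Other zinc finger families, taken over all chromosomes, were marked in these lists as well. Zbtb genes, which encode BTB zinc finger proteins, were marked in 39 of 41 cases in wild type, 41 in the Ezh2 knockout, 40 in the Utx knockout and 40 in the Jmjd3 knockout. Their median rank percentiles of 78.2, 74.2, 78.1 and 79.6 lay above those of the Zfp genes of chromosomes 7, 13 and 17 in each list. Zkscan genes, which join a KRAB and a SCAN domain to zinc fingers, were marked in 10 of 11 cases and Klf genes in 15 of 17 in every list. Zscan genes, which carry the SCAN domain, were marked in 10 of 16 cases in every list (62.5%), near the share of all protein-coding genes. That background was 62.3% in wild type, 64.5% in the Ezh2 knockout, 67.7% in the Utx knockout and 63.0% in the Jmjd3 knockout. Among Zfp genes of other chromosomes, Zfp648, Zfp33b, Zfp951 and Zfp488 were marked in wild type and had no Jmjd3-cKO peak within 5 kb. These were 4 of 221, against 1.10% of all protein-coding genes.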
